A study of Caenorhabditis elegans with 6 samples.

Results

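The flavin-containing monooxygenase family of the nematode Caenorhabditis elegans was examined, which comprises the 5 genes fmo-1 (K08C7.2), fmo-2 (K08C7.5), fmo-3 (Y39A1A.19), fmo-4 (F53F4.5) and fmo-5 (H24K24.5), out of 19512 genes in the deposited table. The genes were taken by family name. fmo-2 was chosen by its measured values, namely its low level under the elt-2 RNAi label and its spread between the control libraries, and the other 4 were set beside it as its relatives. The difference of fmo-2 is therefore a description and carries no test. The other 4 genes entered by name and were tested.

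Flavin-containing monooxygenases bind FAD and NADPH and use molecular oxygen to oxygenate soft nucleophiles, mostly nitrogen and sulfur atoms of small molecules. In mammals they are known for the metabolism of drugs and of trimethylamine. In C. elegans fmo-2 is known as a gene that is induced under hypoxia signalling and dietary restriction and that can extend lifespan, and fmo-4 is known from the epidermis and from osmoregulation.

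The RNA came from whole animals of the wild-type strain N2. About 10000 synchronized L1 larvae were used for each culture. They received bacteria with an elt-2 RNAi construct or bacteria with the empty vector, and were collected at the L4 larval stage after 28 hours. The design had 3 libraries labelled elt-2 RNAi, called RNAi-labelled here, and 3 labelled control, each set with letters A to C, and values are given in the order of the letters. ELT-2 is a GATA transcription factor of the intestine, and the design compared the groups to find genes that depend on it at the L4 stage. The study described the libraries as biological replicates, and the labels gave no batch. Each library is a pool of animals and of all their tissues, so that fewer cells of a type and less RNA per cell cannot be told apart. The libraries sampled transcript 3-prime ends (3SEQ), and counts were therefore compared between genes without division by transcript length.

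Total counts were between 29578175 and 35047530 in the RNAi-labelled libraries and between 16568515 and 24168901 in those labelled control. Control A stood apart. Its most abundant 3% of genes took 72.8% of the counts, against 86.7% to 93.3% in the other libraries, and its TMM factor was 3.45, against 0.492 to 1.36. TMM factors correct the library size for such differences in composition, and CPM below stands for counts per 1000000 after this correction unless library size alone is named. 1 count was worth 0.0484 to 0.058 CPM in the RNAi-labelled libraries and 0.0175 to 0.0424 CPM in the controls.

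The target gene went against the labels. elt-2 (C33D3.1) had 33.4, 5.81 and 178 CPM in RNAi-labelled A to C, against 4.08, 1.53 and 3.31 CPM in controls A to C. It was higher in the RNAi-labelled libraries, by 4.6 on the log2 scale (SE 1.16, edgeR adjusted p 0.0395), and this call did not hold without RNAi-labelled C (2.80, adjusted p 0.135) and without control A (4.70, adjusted p 0.103). Scaled by library size alone the value was 2.57 (edgeR adjusted p 0.0502), which was 4.33 above the median of all tested genes in that fit. Because of these counts the groups are named as labelled throughout, and no difference is read as an effect of reduced elt-2. Whether labels or columns were exchanged was not tested, nor whether reads of the elt-2 RNAi construct entered the elt-2 counts. If all libraries were exchanged between the groups, every direction given here would be the opposite. An exchange of only some libraries would mix the groups instead.

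Among the 11474 genes with enough counts to be tested, 1823 (15.9%) were lower and 1489 higher in the RNAi-labelled libraries at an edgeR adjusted p under 0.10, which together was 28.9% of the genes. Of the 4 tested relatives of fmo-2 only fmo-1 was called, and it was lower. It passed the filter on low counts through the controls, and its call is not read against these shares. The groups did not overlap for 46.7% of all tested genes, and did not overlap for fmo-1, fmo-2 and fmo-5 among the 5 members, where the position of fmo-2 was part of its choice. These counts depended on single libraries, with 20 genes called lower and 445 higher without RNAi-labelled C, 414 and 850 without RNAi-labelled B, 693 and 994 without RNAi-labelled A, and 588 and 1057 without control A.

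The family lies at 4 places of the genome. In the WBcel235 annotation, fmo-1 (chromosome IV, 10661857 to 10664404, plus strand) and fmo-2 (chromosome IV, 10682524 to 10684367, plus strand) are 18119 bp apart, in the same orientation, with 3 other measured genes between them. fmo-3 is on chromosome III (10694681 to 10698864, plus strand). fmo-4 (13603276 to 13606701, minus strand) and fmo-5 (899304 to 903665, minus strand) are at distant positions of chromosome V. No annotated gene overlapped any of the 5. Their longest transcripts were similar in length, between 1622 nt for fmo-3 and 2018 nt for fmo-4, with 5 to 8 exons. The annotated 3-prime untranslated regions differed more, from 41 nt in fmo-2 to 304 nt in fmo-4.

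fmo-2 had the widest range of the family. It was read 17, 4 and 4 times in RNAi-labelled A to C, and 5091, 300 and 184 times in controls A to C. These counts corresponded to 0.823, 0.209 and 0.232 CPM in the RNAi-labelled libraries, against 89.1, 9.57 and 7.81 CPM in the controls. Control A was far above the other controls, and every control was above every RNAi-labelled library. The mean was 0.421 ± 0.348 CPM in the RNAi-labelled libraries and 35.5 ± 46.4 CPM in the controls (SD, n = 3 each), and the fitted log2 fold change was -6.36 (SE 1.22), which is given as a description.

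The spread of fmo-2 lay mainly in the controls. On the log2(CPM + 0.5) scale its range was 0.90 over the RNAi-labelled libraries and 3.43 over the controls. The median tested gene had ranges of 0.67 and 0.89. A wider range over the RNAi-labelled libraries than that of fmo-2 was found in 30.7% of the tested genes, and a wider range over the controls in 2.47%. The spread over the controls was part of the choice of fmo-2, so that these shares describe it and support nothing. The level in control A was 10.3 times the mean of controls B and C. Without control A the log2 fold change was -4.42, smaller than with it, and controls B and C remained above the highest of the RNAi-labelled libraries.

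fmo-1, the neighbour of fmo-2, was lower in the RNAi-labelled libraries as well. It was read 16, 8 and 4 times in RNAi-labelled A to C, against 320, 40 and 43 times in controls A to C. In CPM these were 0.775, 0.418 and 0.232 against 5.60, 1.28 and 1.83. The groups did not overlap, and control A was again the highest library. fmo-1 fell by 2.60 on the log2 scale (SE 0.72, 95% interval -4.25 to -0.94, edgeR adjusted p 0.0494), with means of 0.475 ± 0.276 CPM and 2.90 ± 2.36 CPM (SD, n = 3 each). By a two-sided exact permutation test p was 0.1, and 3 libraries against 3 cannot give a smaller one.

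The call of fmo-1 rested on single libraries. It was lost without control A (log2 fold change -1.78, edgeR adjusted p 0.134), without RNAi-labelled B (-2.40, adjusted p 0.139) and without RNAi-labelled C (-2.18, adjusted p 0.196), and was kept in the other 3 fits that each left out 1 library. Both fmo-1 and fmo-2 passed the filter on low counts through the controls, since only 1 of the 3 RNAi-labelled libraries reached its level of 0.372 CPM of library size. In a fit with no such filter fmo-1 had a log2 fold change of -2.53 (edgeR adjusted p 0.0473), and with library size alone -4.62 (adjusted p 0.0198). The latter value differed by -2.85 from the median of all tested genes in that fit.

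**Figure D1:**
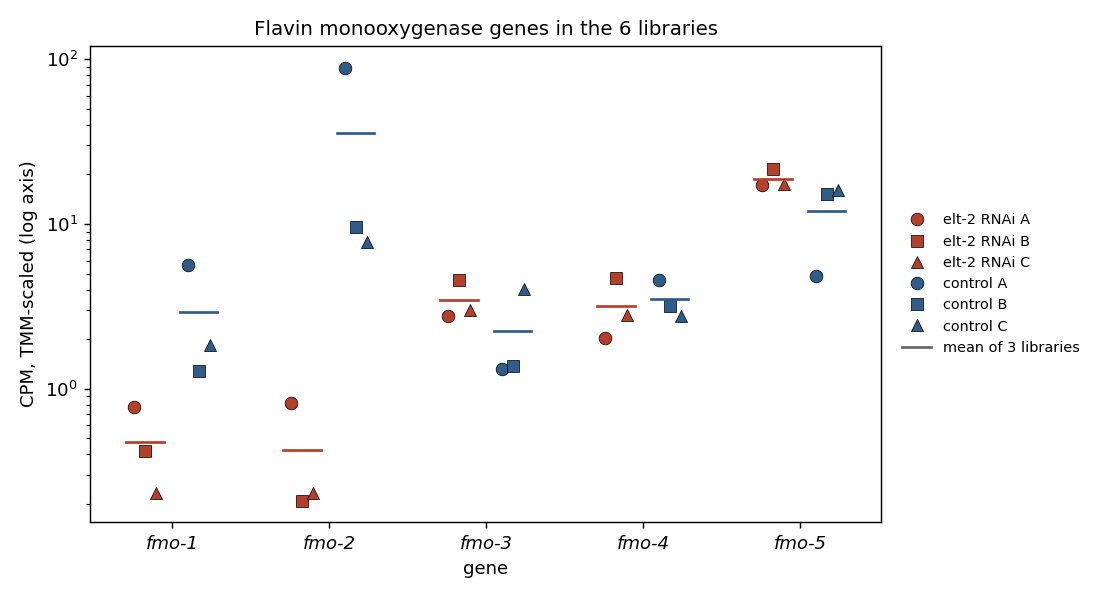
Level of each flavin monooxygenase gene in the 6 libraries (vertical axis, TMM-scaled CPM on a log axis), with elt-2 RNAi libraries in red to the left and control libraries in blue to the right, 1 symbol for each letter and a line at the mean of 3. fmo-2 runs from 0.209 CPM in RNAi-labelled B to 89.1 CPM in control A and fmo-1 is spread in the same order of groups, while the groups of fmo-3 and fmo-4 overlap.

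fmo-5 was the most abundant member in all 3 RNAi-labelled libraries. It was read 358, 412 and 304 times in RNAi-labelled A to C, and 274, 480 and 379 times in controls A to C. After scaling it had 17.3, 21.5 and 17.6 CPM in the RNAi-labelled libraries, against 4.80, 15.3 and 16.1 CPM in the controls. The RNAi-labelled libraries were close together, and control A was low. The groups did not overlap, but the log2 fold change of 0.64 (SE 0.48, 95% interval -0.46 to 1.75) was not called (edgeR adjusted p 0.346, exact permutation p = 0.1).

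The direction of fmo-5 depended on the scaling, and its size on control A. With library size alone it had 12.1, 13.7 and 8.67 CPM in the RNAi-labelled libraries, against 16.5, 20.9 and 15.7 CPM in the controls, where control A no longer stood apart, and its log2 fold change was -0.62 (edgeR adjusted p 0.425). That scaling moved the median of all tested genes to -1.76, where TMM gave -0.12. Relative to the median gene, fmo-5 was higher by 0.76 with TMM and by 1.14 with library size alone, and without control A by 0.35.

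For fmo-4 no difference was called. It had 2.03, 4.71 and 2.79 CPM in RNAi-labelled A to C, against 4.55, 3.19 and 2.76 CPM in controls A to C. The highest value was in RNAi-labelled B and the lowest in RNAi-labelled A, and the groups overlapped. The log2 fold change was -0.14 (SE 0.43, edgeR adjusted p 0.818), with a 95% interval from -1.13 to 0.84, which does not exclude a difference in either direction. Its direction turned without RNAi-labelled A (0.18) and without RNAi-labelled C (0.02). With library size alone fmo-4 was called lower (-1.97, edgeR adjusted p 0.0829), a difference of -0.21 from the median gene of that fit.

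fmo-3 had 2.76, 4.6 and 3.02 CPM in RNAi-labelled A to C, against 1.31, 1.37 and 4.03 CPM in controls A to C. Control C lay among the RNAi-labelled libraries, whereas controls A and B were below all of them. The log2 fold change of 0.64 (SE 0.53, 95% interval -0.58 to 1.86) was not called (edgeR adjusted p 0.393). Control C decided this: without it the log2 fold change was 1.47 and fmo-3 was called higher (adjusted p 0.0584). With library size alone the direction turned, at -0.70 (adjusted p 0.478), although the value stayed 1.06 above the median gene.

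The ratios between members within a library do not depend on how libraries are scaled. The 5 genes together had 490, 602 and 412 counts in RNAi-labelled A to C, and 6020, 963 and 766 counts in controls A to C. fmo-2 took 3.47% (exact 95% interval 2.03% to 5.50%), 0.664% (0.181% to 1.69%) and 0.971% (0.265% to 2.47%) of these in RNAi-labelled A to C. In controls A to C it took 84.6% (83.6% to 85.5%), 31.2% (28.2% to 34.2%) and 24.0% (21% to 27.2%). The intervals cover counting error only. The share of fmo-2 was thus low in each RNAi-labelled library and differed among the controls, with control A apart from B and C. Both features were part of the choice of fmo-2, so that the shares describe it and support nothing.

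fmo-5 held the most reads of the 5 genes in every library but control A, where fmo-2 and fmo-1 were above it. Its share was 73.1%, 68.4% and 73.8% in RNAi-labelled A to C, against 4.55%, 49.8% and 49.5% in controls A to C. fmo-1 never held more than 5.61% of the family, a share it reached in control C, and held 3.27%, 1.33% and 0.971% in RNAi-labelled A to C. fmo-3 took 11.6% to 14.6% of the reads in the RNAi-labelled libraries and 1.25% to 12.4% in the controls. fmo-4 took 8.57% to 15% and 4.32% to 10.4%.

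**Figure D2:**
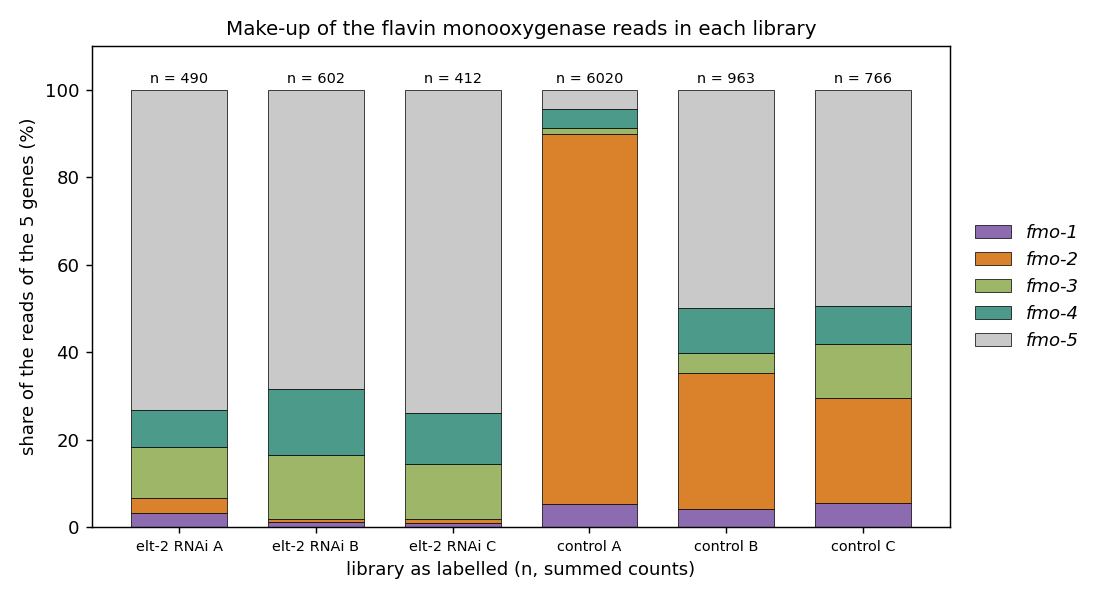
Share of each gene (stacked colours, percent on the vertical axis) in the summed reads of the 5 flavin monooxygenase genes, for the elt-2 RNAi libraries on the left and the control libraries on the right, with the summed counts above each bar. fmo-2 takes 84.6% of the bar in control A and 24.0% to 31.2% in controls B and C, against at most 3.47% in the RNAi-labelled libraries, where fmo-5 takes most of each bar.

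All 5 genes together had 23.7, 31.5 and 23.9 CPM in RNAi-labelled A to C, against 105, 30.7 and 32.5 CPM in controls A to C. Summed without fmo-2, which was picked for its spread, the family was more even. fmo-5 gave most of this sum in every library but control A. The other 4 genes together had 22.9, 31.3 and 23.7 CPM in RNAi-labelled A to C, against 16.3, 21.2 and 24.7 CPM in controls A to C. The groups overlapped. With library size alone they did not, and the RNAi-labelled libraries were lower, at 16, 19.9 and 11.6 CPM in the RNAi-labelled libraries and 56.1, 28.8 and 24.1 CPM in the controls.

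Relative to fmo-5 in the same library, fmo-2 had a ratio of 0.0475, 0.00971 and 0.0132 in RNAi-labelled A to C, against 18.6, 0.625 and 0.485 in controls A to C. The ratio of fmo-1 to fmo-5 was 0.0447, 0.0194 and 0.0132, against 1.17, 0.0833 and 0.113. Both ratios were lower in every RNAi-labelled library than in every control, which for fmo-2 was part of its choice. The ratio of fmo-3 to fmo-5 was 0.159, 0.214 and 0.171 in the RNAi-labelled libraries, against 0.274, 0.0896 and 0.251 in the controls, and that of fmo-4 to fmo-5 was 0.117, 0.218 and 0.158 against 0.949, 0.208 and 0.172. The groups overlapped for both of these ratios.

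Within the pair on chromosome IV, the levels stood apart in the controls and were similar in the RNAi-labelled libraries. The ratio of fmo-2 to fmo-1 counts was 1.06, 0.5 and 1 in RNAi-labelled A to C, where both genes had 17 counts or fewer, against 15.9, 7.50 and 4.28 in controls A to C. Across the 6 libraries log2(CPM + 0.5) of fmo-1 and fmo-2 had a Pearson r of 0.973, and each had a negative r with fmo-5 (-0.896 for fmo-1 and -0.881 for fmo-2). These values describe 6 points that share group and scaling, and control A is the outer point of each.

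The order of the members by counts was the same for the highest gene in the RNAi-labelled libraries (fmo-5) and differed among the controls, with fmo-2 first in control A and fmo-5 first in controls B and C. fmo-1 and fmo-2 were the lowest members in all 3 RNAi-labelled libraries. Ordering by counts per kilobase of the longest transcript exchanged only neighbours with similar counts, fmo-3 and fmo-4 in RNAi-labelled B and fmo-1 and fmo-2 in RNAi-labelled C.

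**Figure D3:**
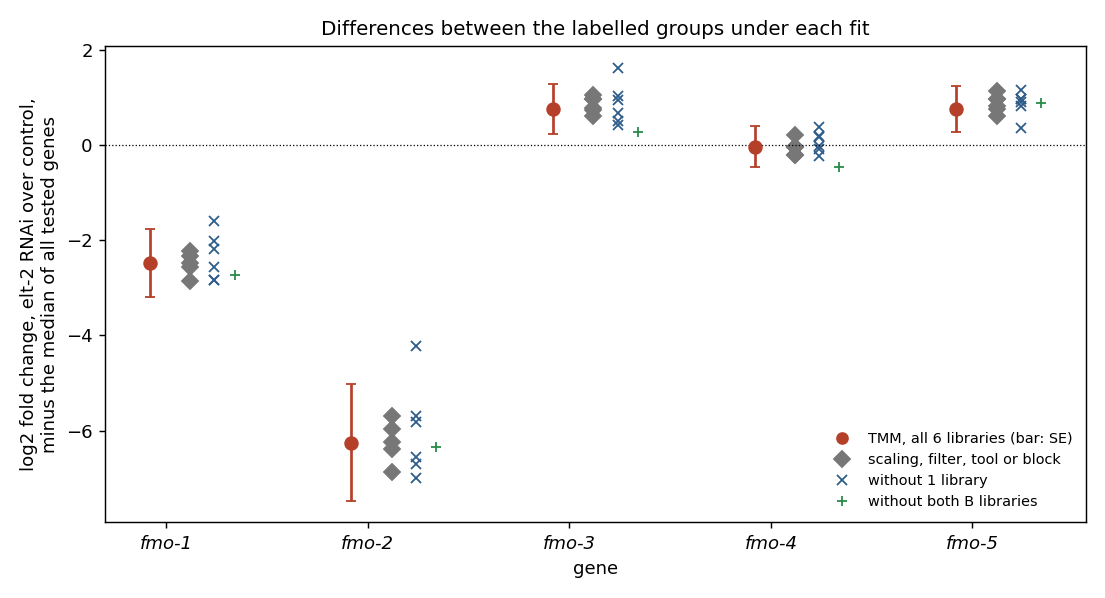
Log2 fold change of each member, elt-2 RNAi over control, minus the median of all tested genes in the same fit (vertical axis), for the fit with TMM and all 6 libraries (red, bar 1 SE), for other scalings, filters, tool or a replicate block (grey), without 1 library (blue) and without both B libraries (green). fmo-1 and fmo-2 stay below 0 in each fit shown, fmo-2 is nearest to 0 without control A at -4.22, and fmo-4 falls on both sides of 0.

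The genes next to the members were examined because 3-prime end reads can run on into a close neighbour. K08C7.7 begins 29 bp after fmo-1 on the same strand and had 5, 5 and 8 counts in RNAi-labelled A to C, against 48, 9 and 14 in controls A to C (log2 fold change -0.85, edgeR adjusted p 0.332). K08C7.6 ends 64 bp beyond fmo-2 on the opposite strand and had 11, 24 and 38 counts, against 166, 54 and 38 (-0.66, adjusted p 0.412). Neither was called. In control A, K08C7.7 had 48 counts and fmo-1 had 320, while K08C7.6 had 166 and fmo-2 had 5091. In RNAi-labelled C, K08C7.7 had 8 counts and fmo-1 had 4, while K08C7.6 had 38 and fmo-2 had 4. Whether reads ran on between these genes was not tested. On the upstream side K08C7.1 was not called (-0.92, adjusted p 0.343) and K08C7.4 had too few counts to be tested.

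Next to fmo-5, nas-32, an astacin metalloprotease gene that starts 116 bp downstream on the same strand, had 7.17, 5.70 and 6.97 CPM in RNAi-labelled A to C, against 0.858, 4.4 and 3.78 CPM in controls A to C. It showed the same low control A as fmo-5 and was not called (log2 fold change 1.14, edgeR adjusted p 0.178). trm-2A, upstream of fmo-5, was not called either (0.46, adjusted p 0.363), nor was Y39A1A.20 downstream of fmo-3 (0.62, adjusted p 0.585). Upstream of fmo-4, spig-9 was called lower, with 2.76, 2.41 and 2.44 CPM against 7.72, 4.28 and 6.75 CPM (-1.30, adjusted p 0.0488), and it lost the call without control A, RNAi-labelled A, RNAi-labelled B or RNAi-labelled C, where adjusted p reached 0.204. rdy-2 and Y39A1A.18 had no or hardly any reads.

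The genes whose levels were most like those of fmo-2 across the 6 libraries were set-1, adh-1, row-1, zfp-1 and rnf-126, with a Pearson r of log2(CPM + 0.5) between 0.985 and 0.998 among 3529 genes that averaged 10 CPM or more. adh-1, an alcohol dehydrogenase gene, came closest in the size of its spread, with 27.8, 21.7 and 19.3 CPM in RNAi-labelled A to C, against 500 CPM in control A, 89.8 CPM in control B and 74.2 CPM in control C. set-1, a histone methyltransferase gene, had the highest r but a narrow range, with 11.3, 9.89 and 9.46 CPM against 34.2, 19.5 and 17.1 CPM. A high r over 6 libraries that share group and scaling says little by itself.

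The same comparison for the other members gave different genes. The levels of fmo-1 were most like those of T20B12.7, let-60 and swsn-7 (r between 0.979 and 0.983). Those of fmo-3 were most like dhs-26, clec-50 and F23D12.11 (r between 0.983 and 0.989), genes that were high in RNAi-labelled B and control C, of which clec-50, a C-type lectin gene, had 182, 379 and 174 CPM against 65.7, 59.0 and 429 CPM. The likeness was lower without TMM factors, at an r of 0.0812 for dhs-26, 0.878 for clec-50 and 0.865 for F23D12.11. The levels of fmo-4 were most like those of cytb-5.1, a cytochrome b5 gene, emc-1 and pod-2 (r between 0.970 and 0.988). Those of fmo-5 were most like Y71H2AM.12, Y54G11A.7 and nlp-25 (r between 0.994 and 0.995), genes with a low control A after TMM scaling. For these 3 genes in turn r was 0.866, 0.797 and 0.936 with library size alone. Without control A it was 0.897, 0.901 and 0.882.

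Of 6 regulators listed for fmo-2, 3 were called lower in the RNAi-labelled libraries, where 15.9% of all tested genes were called lower. Their median log2 fold change was -0.81, against -0.12 over all tested genes. The list was chosen with earlier results of these data known, so that these values describe it and support nothing. The hypoxia-inducible factor gene hif-1 had 9.10, 8.42 and 7.31 CPM in RNAi-labelled A to C, against 17.2, 15.9 and 12.2 CPM in controls A to C (log2 fold change -0.87, SE 0.32, edgeR adjusted p 0.0962). The nuclear hormone receptor gene nhr-49 had 4.16, 7.90 and 5.92 CPM, against 24.6, 12.5 and 10.3 CPM (-1.40, adjusted p 0.0699). mdt-15, a Mediator subunit gene, had 6.34, 8.84 and 7.02 CPM, against 25.2, 14.9 and 12.2 CPM (-1.24, adjusted p 0.0665).

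The groups did not overlap for these 3 genes, nor for 46.7% of all tested genes, and control A was the highest library of the 3 genes. The calls were not stable. hif-1 was not called once any 1 of the 6 libraries was left out (edgeR adjusted p 0.127 to 0.329), nor by DESeq2 (adjusted p 0.105) or with no filter on low counts (edgeR adjusted p 0.160). Of the fits that left out 1 library, nhr-49 and mdt-15 were called only in those without control B or control C, with adjusted p up to 0.229 and 0.235 in the others. hlh-30, which encodes the TFEB-like factor of the worm, was not called (log2 fold change -0.75, adjusted p 0.214), nor were daf-16, a FOXO factor gene (-0.70, adjusted p 0.171), and skn-1, an Nrf-like factor gene (-0.13, adjusted p 0.803).

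**Figure D4:**
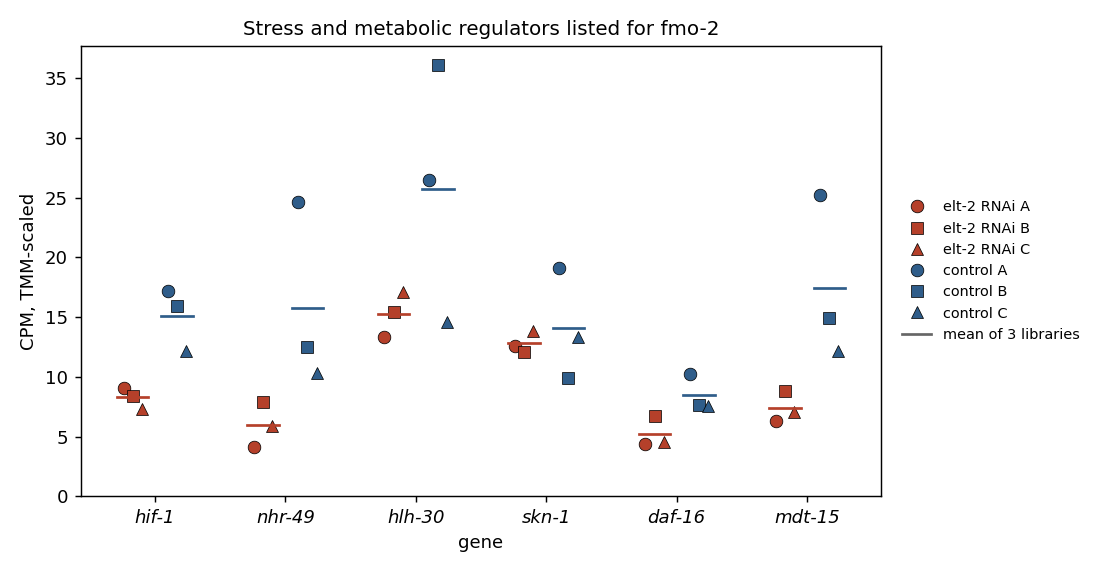
Levels of 6 regulators listed for fmo-2 (vertical axis, TMM-scaled CPM from 0), with elt-2 RNAi libraries in red to the left, control libraries in blue to the right, 1 symbol for each letter and a line at the mean of 3. hif-1, nhr-49, daf-16 and mdt-15 show groups without overlap, as 46.7% of all tested genes did, while the groups of hlh-30 and skn-1 overlap.

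In the hypoxia pathway, which acts on fmo-2 through HIF-1, 2 of 10 tested genes were called lower and 1 higher, with a median log2 fold change of -0.53, a share of calls near the 28.9% of all tested genes. Beside hif-1, vhl-1, whose product marks HIF-1 for degradation, was lower, with 0.0968, 0.732 and 0.174 CPM against 2.94, 0.798 and 2.42 CPM (-2.61, edgeR adjusted p 0.0659), a call lost without control A, RNAi-labelled A or RNAi-labelled C (adjusted p up to 0.230). It was read only 2, 14 and 3 times in RNAi-labelled A to C. Like fmo-1, vhl-1 passed the filter on low counts through the controls, which limits its call in the same way. cysl-2, a HIF-1 target, was in contrast higher, with 55.9, 38.4 and 72.0 CPM against 9.51, 20.3 and 15 CPM (1.89, SE 0.45, adjusted p 0.0343), and lost the call only without RNAi-labelled C among the 6 fits (adjusted p 0.154). cysl-2 was also not called with library size alone (0.40, adjusted p 0.590), where the median of all tested genes was -1.76. egl-9, the prolyl hydroxylase gene upstream of HIF-1, was not called (-0.56, adjusted p 0.366).

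Of 6 NHR-49 targets, 1 was called in each direction, where 28.9% of all tested genes were called in either direction. The median was 0.11. acs-2, an acyl-CoA synthetase gene, had 9.01, 1.15 and 0.929 CPM in RNAi-labelled A to C, against 65.7, 27.9 and 8.23 CPM in controls A to C (log2 fold change -3.19, edgeR adjusted p 0.0750). RNAi-labelled A lay above control C, and the call was lost without control A, RNAi-labelled B or RNAi-labelled C (adjusted p up to 0.227). Without RNAi-labelled A the value was -4.92 (adjusted p 0.0374). fat-5, a fatty acid desaturase gene, was higher, with 51.9, 46.7 and 64 CPM against 5.83, 10.2 and 11.8 CPM (2.55, SE 0.42, adjusted p 0.0114), and kept its call whichever of the 6 libraries was left out (adjusted p up to 0.0682). The log2 fold change of fat-5 stayed above 0 with library size alone (1.10), where it was not called (adjusted p 0.139). The median of all tested genes was -1.76 in that fit.

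Enzymes that supply NADPH or pass its electrons on were mixed, with 1 of 10 called lower, 1 called higher and a median of 0.15. Of all tested genes 28.9% were called in either direction. gsr-1, a glutathione reductase gene, had 317, 206 and 350 CPM in RNAi-labelled A to C, against 25.2, 75.0 and 79.9 CPM in controls A to C (log2 fold change 2.28, SE 0.58, edgeR adjusted p 0.0398). Without RNAi-labelled C its adjusted p was 0.165. With library size alone the value of gsr-1 was 0.97 (adjusted p 0.0977), where the median of all tested genes was -1.76. gspd-1, the glucose-6-phosphate dehydrogenase gene, had 2.76, 5.44 and 3.60 CPM, against 11.8, 5.33 and 8.91 CPM (-1.14, adjusted p 0.0973), with overlapping groups, and kept its call in only 1 of the 6 fits, that without control B (adjusted p 0.0721 there and up to 0.289 in the others), and not with no filter on low counts (adjusted p 0.122). The cytochrome P450 reductase gene emb-8 was not called (-0.67, adjusted p 0.185).

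In the methionine and one-carbon cycle 2 of 17 tested genes were called, both higher, against 28.9% of all tested genes in either direction. The median was 0.17. pmt-2, a phosphoethanolamine methyltransferase gene, had 106, 150 and 137 CPM against 2.80, 3.48 and 26.1 CPM (log2 fold change 3.60, edgeR adjusted p 0.0396), and lost the call without RNAi-labelled B (3.55, adjusted p 0.1) or RNAi-labelled C (3.60, adjusted p 0.147). Without control C, its highest control, the value was 5.48 (adjusted p 0.00479). sams-1, the S-adenosylmethionine synthetase gene, had 29.4, 198 and 118 CPM against 21.5, 27.8 and 18.8 CPM (2.34, adjusted p 0.0536), and lost the call without control A, RNAi-labelled B or RNAi-labelled C (adjusted p up to 0.168). With library size alone sams-1 was not called (0.65, adjusted p 0.444), where the median of all tested genes was -1.76.

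Enzymes of the route from tryptophan to kynurenine, where another FAD-dependent monooxygenase, kmo-1, acts, gave no call among 7 tested genes by edgeR. None had an unadjusted p under 0.05 (0 of 7), and DESeq2 called 0 of 7 as well. The median log2 fold change was -0.34, and 28.9% of all tested genes were called by edgeR.

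Marker genes of several tissues were read in the same libraries, where 28.9% of all tested genes were called in either direction. Of 10 intestinal markers 1 was called lower (elt-7) and 3 higher (act-5, pept-1 and asp-1), with a median log2 fold change of 0.40. Their summed levels were 1660 to 4730 CPM in the RNAi-labelled libraries, against 371 to 1530 CPM in the controls, and asp-1 alone gave 1300 to 3280 CPM against 226 to 669 CPM. Of 7 tested epidermal markers 4 were called lower (noah-1, noah-2, nhr-23 and sqt-3). elt-3 (0.45), rol-6 (1.34) and bli-1 (1.75) were higher and not called. noah-1 had 6, 10 and 8 counts in RNAi-labelled A to C and passed the filter on low counts through the controls. The epidermal sums were 17.0 to 21.2 CPM against 189, 282 and 16.7 CPM in controls A to C, so that control C was as low as the RNAi-labelled libraries. sqt-3 alone gave 69.1, 213 and 1.61 CPM in controls A to C. 2 of 8 body wall muscle markers were called higher, with sums of 3490 to 4850 CPM against 731 to 2470 CPM. mlc-2, which was not called, alone gave 2300 to 3720 CPM against 431 to 1530 CPM. The germ line markers (2 lower and 1 higher of 8) had sums of 952 to 1290 CPM against 195 to 697 CPM. Of these sums glh-1, the marker called higher, gave 316 to 496 CPM against 17.9 to 125 CPM. msp-142, which was not called, gave 348 to 512 CPM against 47.6 to 326 CPM. The neuronal markers (2 lower of 8) had sums that overlapped, at 77.7 to 107 CPM against 64.7 to 109 CPM. No marker was at 0 counts in any library. The part of these tissues in the values of fmo-1 to fmo-5 was not tested.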

How the data were processed

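RNA from whole L4 animals was sequenced by 3SEQ in 3 libraries labelled elt-2 RNAi and 3 labelled control. The authors mapped the reads with Bowtie 0.12.7, per the processing notes of the labels, and deposited a table of raw counts per gene for all samples. The genome build, annotation and strand setting of the counting are not given in the sources used here. Gene positions come from the WBcel235 annotation and were joined by sequence name for 19081 of 19512 genes.

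Differences were fitted with edgeR 4.0.16 (R 4.3.3) by the quasi-likelihood test on the deposited counts, with TMM scaling, the edgeR expression filter and Benjamini-Hochberg adjustment over 11474 genes, and were called at an adjusted p under 0.10. DESeq2 1.42.0 was an alternative. Single genes were also compared with two-sided exact permutation tests. Log levels used a pseudocount of 0.5 CPM. The script was tested on simulated counts with 200 genes changed 4-fold. With the spread of these libraries 30.9% of the changed genes tested were recovered, and 7.9% of the calls were false. With a low spread 100% were recovered, and 11.8% of the calls were false. A gene that was not called can therefore still differ. The other scalings, filters, left-out libraries and a replicate block are covered in the closing section.

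Genes named were the members, their nearest annotated neighbours, the genes most correlated with each member, and the called or central genes of the pathway lists. The members and lists were chosen with earlier results of these data known.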

Additional observations from a re-analysis of the deposited data

How the results depend on the processing

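Scaling and single libraries had the widest effects. With library size alone 6000 genes were called lower and 441 higher, where TMM gave 1823 and 1489. Library size without the top 3% of genes gave 3747 lower. An adjusted p under 0.05 left 675 lower and 912 higher. Without both B libraries there were 978 lower and 885 higher. Leaving out 1 library gave 20 to 2360 genes lower and 445 to 1930 higher. Replicate letters did not pair the libraries: deviations of same-letter libraries had r of -0.198 (A), -0.549 (B) and -0.0514 (C), and a fit with a replicate block called 339 lower and 880 higher.

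The fmo-2 difference was -8.63 with library size alone (-6.87 from the median gene) and between -7.19 and -4.42 when 1 library was left out. Its share of family reads differed by -44.9 points, or -56.2 to -25.9 without 1 library. fmo-1 ranged over -3.05 to -1.78 and elt-2 over 2.80 to 5.24. fmo-3 was -0.70 with library size alone, 1.47 without control C, and ranged over 0.23 to 1.47. fmo-4 was -1.97 with library size alone (edgeR adjusted p 0.0829), 0.18 without elt-2 RNAi A and 0.02 without elt-2 RNAi C, in a range of -0.45 to 0.18. fmo-5 was -0.62 with library size alone. The direction of Y39A1A.20 turned with library size alone (-1.07) and without elt-2 RNAi C (-0.05; 1-library range up to 1.21), that of nas-32 with library size alone (-0.07), that of trm-2A with library size alone (-1) and without the top 3% (-0.04), and that of skn-1 without control A (0.03) and elt-2 RNAi B (0.00; 1-library range down to -0.39). The cause was not tested. A minimum of 10 counts in every library removed fmo-1 and fmo-2, so that it gave no value for them. Counts of 4 to 17 limit both genes in the libraries labelled elt-2 RNAi.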
